A study of Mus musculus with 46 samples.

Results

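The genes for the pore subunits of voltage-gated calcium channels were followed across 7 types of GABAergic neuron from mouse frontal cortex. The members were chosen by name and number 8 of the 23335 genes in the table: Cacna1a, Cacna1b, Cacna1e, Cacna1c, Cacna1d, Cacna1g, Cacna1h and Cacna1i. All 8 passed the filter on low counts, which kept 15533 genes. A pore subunit is the large protein that forms the channel itself: it senses the membrane voltage, opens, and lets calcium enter the cell. Channels of the high-voltage-activated classes (P/Q, N, R and L) open on strong depolarization, and P/Q- and N-type channels carry most of the calcium that triggers transmitter release at nerve terminals. Channels of the low-voltage-activated T class open near the resting potential and are known for rebound bursts of spikes.

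RNA was counted in 584 single neurons in 46 libraries, each of which pooled up to 16 cells under separate cell barcodes after linear amplification. Every mouse was labelled wild type and carried driver alleles and a red fluorescent reporter. The labels state that there was no experimental treatment besides the tamoxifen given to the Nkx2.1-CreER cross, and red cells were picked by hand from dissociated tissue. Martinotti cells were marked by Sst-Flp; CR-Cre; Ai65 (62 cells, layers 2 and 3, 2 female animals of postnatal day 35). Interneuron-selective cells were marked by Vip-Flp; CR-Cre; Ai65 (63 cells, layers 2 and 3, 2 females of day 32). CCK basket cells were marked by Vip-Flp; CCK-Cre; Ai65 (64 cells, layers 2 and 3, 2 males of day 39 and day 40). PV basket cells were marked by Pv-iresCre; Ai14 (127 cells, all layers, 4 animals of both sexes, days 58 to 83). Chandelier cells were marked by Nkx2.1-CreER; Ai14, which was induced by tamoxifen on embryonic day 17.5. The labels print that note on every sample. Upper chandelier cells came from the border of layer 1 and layers 2 and 3 (80 cells, 2 females, days 40 to 58), and deep chandelier cells from layers 5 and 6 (52 cells, 2 males of day 34). One upper chandelier library is labelled Ai15 in place of Ai14, and the labels give animal 14 ages of both 40 and 58 days. Long-projecting cells were marked by Sst-Flp; Nos1-Cre; Ai65 (136 cells, 4 males of days 28 and 29). The PV basket cross marks cells by Pvalb alone, which chandelier cells can also express.

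Libraries held 530927 to 4568242 counts. The 16 PV basket libraries fell into 8 pairs, each of 1 library labelled male and 1 labelled female, that differed by about the sampling noise. The 2 libraries of each pair also carried the same index sequence, in neighbouring lanes. Each pair was counted as 1 library, and animals 7 and 8, and animals 9 and 10, as 1 replicate each. The 127 PV basket cells, and so the 584 neurons, are counted as deposited. Whether the 2 libraries of a pair hold different cells was not tested, so these cell counts are uncertain. This left 38 libraries and 16 replicates: 4 animals of long-projecting cells and 2 replicates of every other type. A replicate is otherwise a labelled animal. The same 16 cell barcodes recurred across libraries and never within one. Age, sex and flow cell mostly follow the type, so their part in a difference between types cannot be told apart. In 2 pairs of types the flow cell was shared, but not the age, and in 1 of these not the sex. Gad1 and 7 other GABAergic markers had counts in every type, apart from Lhx6, which was at 0 in interneuron-selective and CCK basket cells. Summed oligodendrocyte markers reached 3492 CPM (counts scaled to a common library total) in interneuron-selective library 3 and 4718 CPM in long-projecting library 2, against at most 270 CPM in the 36 other libraries. Summed markers of excitatory neurons lay between 9.80 and 233 CPM per library. Of the 8 listed, 3 had counts in Martinotti and interneuron-selective cells and 5 in CCK basket and deep chandelier cells, with Slc17a6 and Emx1 at 0 in each of these types. The other types held counts of 7 or 8. Of the 5 tested as described below, 1 was called higher in Martinotti cells and 1 in long-projecting cells, where 5.60% and 13.1% of all genes were called. The deep chandelier libraries differed most among themselves: Vip ran from 0 to 1918 CPM in them.

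The 8 proteins share a pore of 4 repeats, and each repeat holds 1 acidic residue of the ring that selects for calcium. The reference coding sequence around that residue shows how the members group. The stretch of the third repeat is printed for each member, 5′ to 3′, from the mouse transcripts of GENCODE M21, with the codon of the filter residue in capitals. It was located in the longest reading frame by the motif that surrounds the residue, which every member holds 4 times.
Cacna1a: gtgtccacaggaGAGggctggccacag
Cacna1b: gtgtccacgggaGAGgggtggcccatg
Cacna1e: gtctctacagggGAAggatggcctcag
Cacna1c: gtctccaccttcGAAgggtggccagag
Cacna1d: gtctcaacttttGAGggctggcccgcg
Cacna1g: ctggcctccaagGATggctgggttgac
Cacna1h: ctgtcatccaagGATggctgggtaaac
Cacna1i: ttggcctccaagGATggctgggtgaac
The 5 high-voltage-activated genes have a glutamate codon (GAA or GAG) here, and the 3 T-type genes an aspartate codon (GAT). The fourth repeat divides the genes in the same way, as the stretches of an R-type and a T-type gene show.
Cacna1e: agtgccacggggGAGgcttggcaggag
Cacna1g: gtctccactggtGACaactggaatggt
In the first and second repeats all 8 genes have a glutamate codon. The sequences are those of the reference and not of the sampled cells.

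In 1 fit over all 7 types, 3 of the 8 genes differed between types: Cacna1e, Cacna1g and Cacna1h. The background was 25.0% of the 15533 genes tested, so the share among the members is not far above it. The test was the quasi-likelihood F test of edgeR, with p-values adjusted over all genes (Benjamini-Hochberg) and a threshold of 0.05. The adjusted p was 7.96e-05 for Cacna1e, 0.000523 for Cacna1g and 0.0139 for Cacna1h. It was 0.0756 for Cacna1b, 0.0919 for Cacna1c, 0.123 for Cacna1a, 0.251 for Cacna1d and 0.557 for Cacna1i in the same edgeR test. Where each type was set against the mean of the other 6, 8 of the 56 combinations of gene and type were called, 5 higher and 3 lower, and 20 had an unadjusted p under 0.05. Over all genes, 8.56% of such tests were called after adjustment. This share does not apply to the unadjusted count. At that threshold, between 1966 genes (upper chandelier) and 5291 genes (deep chandelier) of the 15533 passed per type. These fold changes average the other types on the log2 scale, so they can differ from a ratio of mean CPM. The fit also scales samples for composition, which the CPM do not. The log2 values of pairs of types can therefore differ from the printed ratios as well. The labels give the animals but not how far their tissue was handled separately, so p-values measure the spread between these samples. Levels are given as CPM within a gene and are not compared between genes, because the protocol and the files give no value per length.

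**Figure D1:**
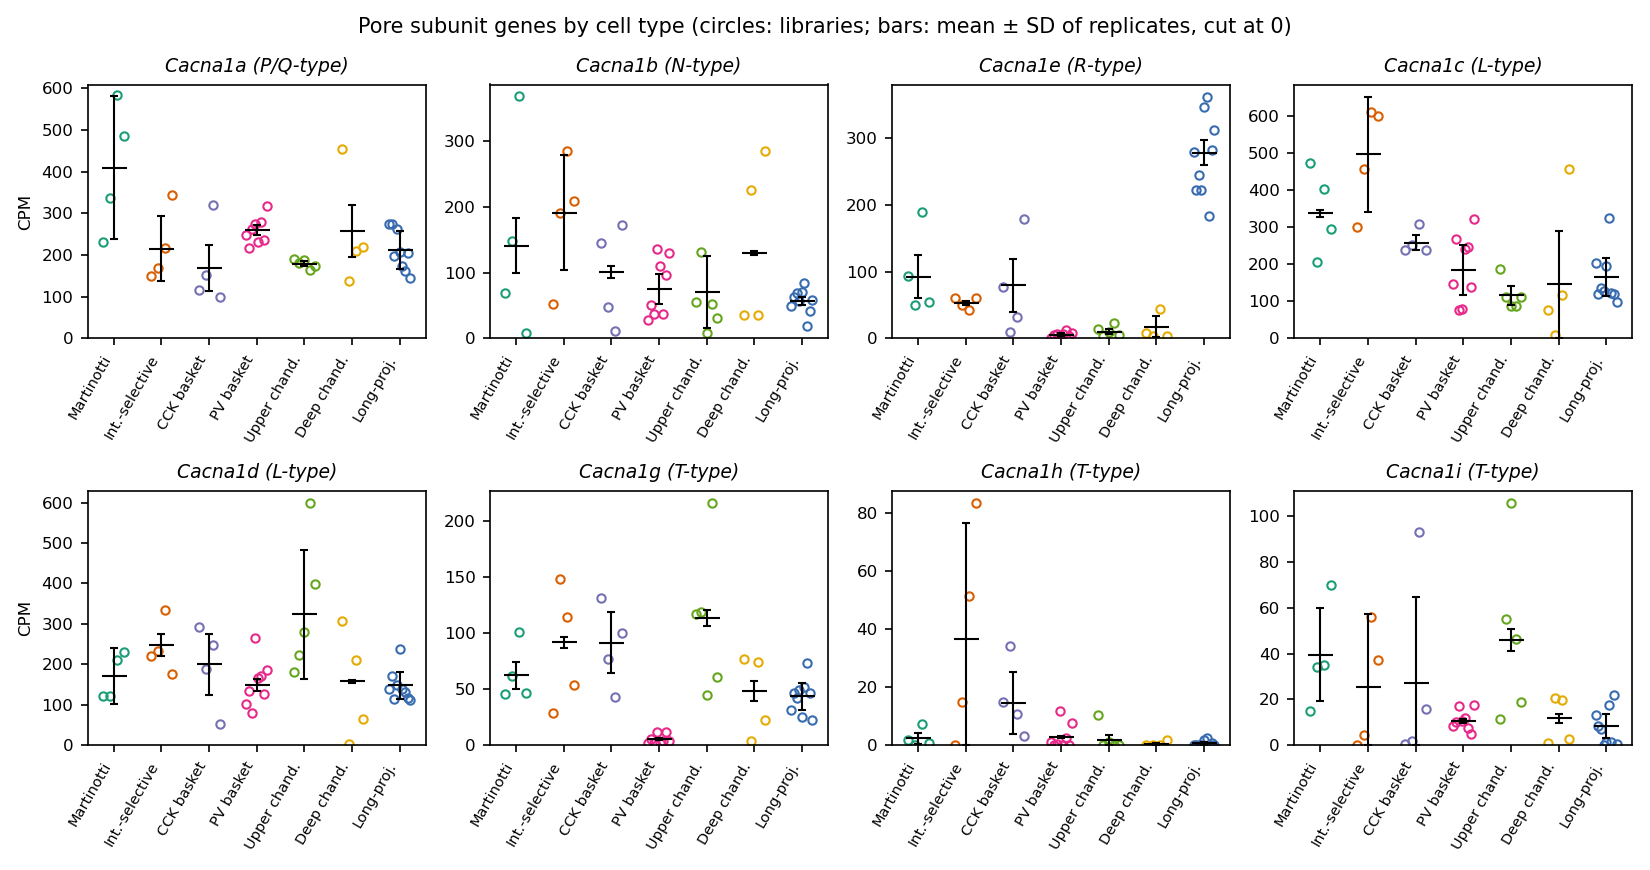
Each panel plots 1 gene, with cell type on the x axis and CPM on the y axis. Circles are the 38 libraries, and horizontal bars with whiskers are the mean ± SD of the replicates, cut at 0. Cacna1e sits at 183 to 363 CPM in long-projecting libraries and at no more than 12.5 CPM in PV basket libraries, and Cacna1g at no more than 11.4 CPM in PV basket libraries.

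Of the presynaptic high-voltage-activated genes, Cacna1a encodes the P/Q-type pore. Its mean was highest in Martinotti cells at 410 ± 172 CPM (SD, n = 2) and lowest in CCK basket cells with 169 ± 54.7 CPM (SD, n = 2), a ratio of 2.43. The Martinotti libraries read 231, 338, 585 and 486 CPM, and the CCK basket libraries 116, 152, 321 and 98.8 CPM. The libraries of these types overlapped, through Martinotti library 1 and CCK basket library 3. PV basket cells stood in between with 260 ± 11.1 CPM (SD, n = 2), and their 8 libraries ran from 216 to 318 CPM. Long-projecting libraries ran from 146 to 275 CPM, and upper chandelier libraries from 165 to 190 CPM, the narrowest range of any type for this gene. Deep chandelier cells had 258 ± 62.4 CPM and interneuron-selective cells 215 ± 78.0 CPM (SD, n = 2 each). No type was called against the other 6, and none of the 21 pairs of types was called for Cacna1a. Of the 7 types, Martinotti cells came nearest, at log2 0.86 ± 0.27 (SE) with an edgeR adjusted p of 0.0784.

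Cacna1b encodes the N-type pore, the other main source of presynaptic calcium. Interneuron-selective cells had the highest mean, 191 ± 87.0 CPM (SD, n = 2), and long-projecting cells the lowest, 56.6 ± 5.95 CPM (SD, n = 4). The 4 interneuron-selective libraries read 52.7, 190, 285 and 209 CPM, and the 9 long-projecting libraries ran from 19.1 to 84.4 CPM with a median of 58.8 CPM. All long-projecting animals lay between 49.4 and 63.8 CPM, below both interneuron-selective animals at 130 and 253 CPM, although interneuron-selective library 1 lay within the long-projecting range. Interneuron-selective cells were 3.38-fold higher than long-projecting cells (log2 1.51 ± 0.42 SE, edgeR adjusted p = 0.0361), and deep chandelier cells 2.29-fold higher (log2 1.32 ± 0.42 SE, edgeR adjusted p = 0.0462). These were the 2 pairs called for the gene, in comparisons where 10.6% and 16.5% of all genes were called. Libraries of 1 type varied widely for Cacna1b: Martinotti libraries read 69.6, 148, 368 and 8.09 CPM, and deep chandelier libraries 35.7, 225, 35.1 and 285 CPM. No type differed from the mean of the other 6, with an edgeR adjusted p of 0.0776 in long-projecting cells.

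Cacna1e encodes the R-type pore, which carries calcium currents in dendrites and at some terminals. It showed the widest range of any member with counts in every library. Long-projecting cells had 278 ± 19.0 CPM (SD, n = 4), and their animals read 251, 285, 282 and 295 CPM. Their 9 libraries ran from 183 to 363 CPM with a median of 280.0 CPM. No animal of another type reached them: the next were Martinotti animals at 70.3 and 115 CPM and CCK basket animals at 51.6 and 108 CPM. Among single libraries, Martinotti library 3 at 189 CPM lay just above the lowest long-projecting library and CCK basket library 4 at 180 CPM just below it.

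Against the mean of the other 6 types, Cacna1e was higher in long-projecting cells by log2 3.46 ± 0.30 (SE), with an edgeR adjusted p of 4.26e-06. It was the member called in that comparison, where 13.1% of all genes were called. The call held in all 54 fits that left out an animal or a library, with log2 values from 3.34 to 3.72. One of these left out library 2, which had the high oligodendrocyte markers, and their part in the level was not tested. Cacna1e was also higher in Martinotti cells by log2 1.43 ± 0.38 (SE, edgeR adjusted p = 0.0426), the 1 member called there against a background of 5.60%. The mean of 92.8 ± 31.9 CPM (SD, n = 2) was 1.25 times the mean of the other types, and the fold change of the fit averages the other types on the log2 scale. This call was lost in 25 of the 54 fits, with adjusted p-values of up to 0.389, reached without animal 2, and under 2 of 10 other settings.

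The low end of Cacna1e lay in PV basket and chandelier cells. PV basket cells had 5.86 ± 2.55 CPM (SD, n = 2), and their 8 libraries ran from 1.35 to 12.5 CPM. Against the mean of the other 6 types they were lower by log2 -3.18 ± 0.55 (SE), with an edgeR adjusted p of 0.00609, a ratio of mean CPM of 15.1. Upper chandelier cells had 10.0 ± 3.92 CPM (SD, n = 2; libraries of 14.6, 4.28, 9.82, 24.0 and 5.70 CPM) and were lower by log2 -2.33 ± 0.53 (SE, edgeR adjusted p = 0.0385). The PV basket call was lost without animals 7 and 8 (adjusted p = 0.164) and without animals 9 and 10 (adjusted p = 0.0658), fits that leave PV basket cells with 1 replicate whose spread is taken from the other types. The upper chandelier call was lost in 16 of the 54 fits, with an adjusted p of up to 0.373 without animal 13. Deep chandelier libraries read 8.58, 3.83, 44.1 and 4.39 CPM, of which library 3 alone lay above the PV basket range, and their difference from the other types was not called (log2 -1.06 ± 0.47 SE, edgeR adjusted p = 0.131).

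For Cacna1e, 11 of the 21 pairs of types were called. Of the 12 pairs that set long-projecting, Martinotti, CCK basket or interneuron-selective cells against PV basket, upper or deep chandelier cells, 10 were called, each higher in the first set. These 2 sets were drawn up from the levels themselves, so the count is a description. The 2 pairs that were not called were interneuron-selective against upper chandelier cells (5.25-fold, edgeR adjusted p = 0.0566) and against deep chandelier cells (3.01-fold, edgeR adjusted p = 0.169). The ratio was 47.5 between long-projecting and PV basket cells (log2 5.68 ± 0.67 SE, edgeR adjusted p = 0.000161). It was 15.8 between Martinotti and PV basket cells (edgeR adjusted p = 0.00482) and 13.6 between CCK basket and PV basket cells (edgeR adjusted p = 0.00525). The background in the 3 pairs with Martinotti cells was 2.67% against PV basket, 2.12% against upper chandelier and 12.5% against deep chandelier cells. For CCK basket cells it was 2.94%, 1.45% and 8.96%, for long-projecting cells 5.03%, 4.08% and 16.5%, and for interneuron-selective against PV basket cells 5.30%. Of the other 9 pairs, 1 was called: long-projecting cells were 5.28-fold above interneuron-selective cells (edgeR adjusted p = 0.00816). Long-projecting cells were 3.00-fold above Martinotti cells and 3.50-fold above CCK basket cells with animals that did not overlap, but the edgeR adjusted p was 0.0810 and 0.0564.

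Cacna1c and Cacna1d encode the L-type pores, which link depolarization to gene expression and to pacemaking. Cacna1c had 497 ± 155 CPM in interneuron-selective cells and 116 ± 25.4 CPM in upper chandelier cells (SD, n = 2 each), a ratio of 4.28. The interneuron-selective libraries read 300, 456, 612 and 600 CPM, all above the 5 upper chandelier libraries at 86.3 to 186 CPM. The difference of interneuron-selective cells from the other 6 types was log2 1.20 ± 0.38 (SE) with an edgeR adjusted p of 0.0618 and was not called. Martinotti cells followed at 337 ± 9.55 CPM and CCK basket cells at 258 ± 20.8 CPM (SD, n = 2 each). Deep chandelier libraries spread most for this gene, from 9.19 CPM in library 2 to 456 CPM in library 4. Without the deep chandelier cells the joint edgeR test of Cacna1c gave an adjusted p of 0.00670, where the fit over all types gave 0.0919. It was also called in that test with DESeq2 (0.0112), the 18 labelled animals as replicates (0.0422), libraries as units and no block (0.0104) and limma with a spread per type (0.0138). In the same order, 7080 of 15517, 6468 of 15662, 7226 of 14208 and 4891 of 15533 genes were called, against 3888 of 15533 in the main fit. The setting with 18 animals counts PV basket animals apart, although their libraries agreed in pairs. The setting with libraries as units counts several libraries of 1 animal as independent. Both raise the number of replicates, so their calls are no added support for a difference. Cacna1c stayed uncalled under 5 of 10 other settings, with an adjusted p of up to 0.138. It also stayed uncalled in 50 of the 54 fits with an animal or library left out.

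Cacna1d had 324 ± 160 CPM in upper chandelier cells and 148 ± 32.8 CPM in long-projecting cells (SD, n = 2 and n = 4), a ratio of 2.19, the smallest among the members. The upper chandelier libraries read 180, 224, 281, 599 and 399 CPM, and animal 14 stood above animal 13, at 437 against 211 CPM. The long-projecting libraries ran from 112 to 237 CPM and overlapped them. No type and no pair of types was called for Cacna1c or for Cacna1d. Values that were not whole, as a tool writes them when it splits a read between genes, fell in 200 of the 569 cells with a Cacna1c count and 180 of the 567 cells with a Cacna1d count. Both genes also overlap genes on the opposite strand in the reference annotation: Cacna1c overlaps Dcp1b, and Cacna1d overlaps Chdh and Dcp1a. No source used here says whether counting used the strand, so the levels of both genes are uncertain to that extent.

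**Figure D2:**
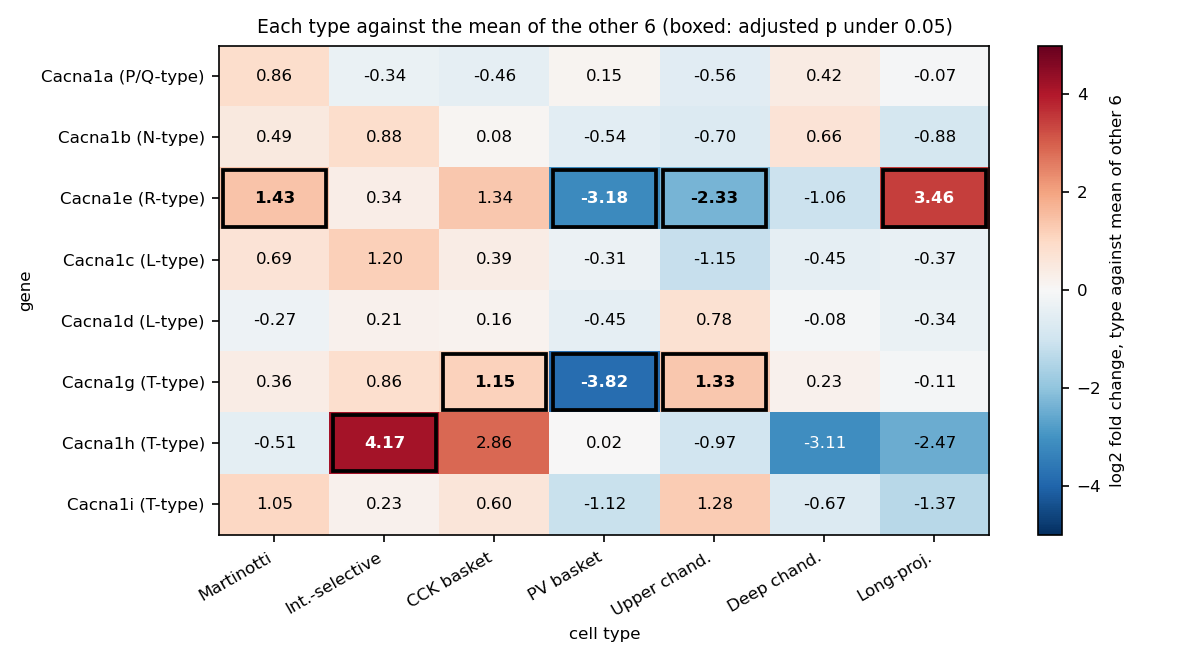
The grid gives the log2 fold change of each gene (rows) in each cell type (columns) against the mean of the other 6 types, from the edgeR fit, with red for higher and blue for lower. Boxes mark the 8 combinations with an adjusted p under 0.05, which fall in Cacna1e, Cacna1g and Cacna1h, and none lies in the column of deep chandelier cells.

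Of the T-type genes, Cacna1g set PV basket cells apart from all other types. PV basket cells had 5.10 ± 0.790 CPM (SD, n = 2), with replicates at 4.54 and 5.66 CPM. Their libraries ran from 1.39 to 11.4 CPM with a median of 3.60 CPM. Every animal of the other types lay higher, the lowest being long-projecting animal 18 at 35.9 CPM. Of all other libraries, deep chandelier library 2 alone, at 3.83 CPM, lay within the PV basket range. Against the mean of the other 6 types, Cacna1g was lower in PV basket cells by log2 -3.82 ± 0.42 (SE), with an edgeR adjusted p of 0.000255, a ratio of mean CPM of 14.7. With Cacna1e, this made 2 members lower in PV basket cells, where 1.11% of all genes were called lower and 3.89% either way. The call held in all 54 fits with an animal or library left out, with log2 values from -4.24 to -3.64.

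All 6 pairs with PV basket cells were called for Cacna1g, and none of the 15 pairs among the other types. Between 0.399% (upper chandelier) and 6.88% (deep chandelier) of all genes were called in those 6 pairs. The ratio to PV basket cells was 22.3 in upper chandelier cells (edgeR adjusted p = 0.000776), 18.0 in interneuron-selective cells (edgeR adjusted p = 0.000379) and 17.9 in CCK basket cells (edgeR adjusted p = 0.000313). It was 12.2 in Martinotti cells, 9.42 in deep chandelier cells and 8.52 in long-projecting cells, with edgeR adjusted p-values of 0.00104, 0.000863 and 0.000485. Upper chandelier cells had the highest mean of Cacna1g, at 114 ± 6.96 CPM (SD, n = 2). They also held Pvalb, the gene of the PV basket driver, at 422 ± 137 CPM, against 1023 ± 92.4 CPM in PV basket cells (SD, n = 2 each).

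Cacna1g was called higher in upper chandelier cells (log2 1.33 ± 0.28 SE, edgeR adjusted p = 0.0280) and in CCK basket cells (log2 1.15 ± 0.28 SE, edgeR adjusted p = 0.0259). The upper chandelier libraries read 118, 119, 44.7, 216 and 60.8 CPM, and the CCK basket libraries 131, 77.2, 42.9 and 100 CPM, both overlapping most other types. The ratios of mean CPM to the other types were 1.99 and 1.50. In upper chandelier cells, 2 members were called (Cacna1e lower, Cacna1g higher) against a background of 1.91%, and in CCK basket cells 1 against 6.30%. The call in upper chandelier cells was lost in 19 of the 54 fits (adjusted p of up to 0.290 without animal 13) and without the 2 libraries with oligodendrocyte markers (adjusted p = 0.0522). The call in CCK basket cells was lost in 8 of the fits, with an adjusted p of 0.318 without animal 5, and under 4 of 10 other settings.

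Cacna1h, a second T-type gene, had 406 counts in all, in 139 of the 584 cells and 21 of the 38 libraries. It was higher in interneuron-selective cells by log2 4.17 ± 0.81 (SE), with an edgeR adjusted p of 0.00659, the 1 member called there against a background of 10.0%. The interneuron-selective libraries read 0, 14.9, 51.3 and 83.4 CPM. Animal 3 had 8.31 CPM and animal 4 had 64.9 CPM, so the mean of 36.6 CPM had an SD of 40.0 (n = 2). Library 3, with 51.3 CPM, is the one with the high oligodendrocyte markers, while library 4, with 83.4 CPM, is not. Without both libraries of animal 4 the call was lost (log2 1.94, edgeR adjusted p = 0.452), and so was the joint call for the gene (adjusted p = 0.0642). CCK basket cells followed at 14.5 ± 10.8 CPM (SD, n = 2), with libraries of 14.7, 34.1, 10.7 and 3.27 CPM, and were not called against the other types (edgeR adjusted p = 0.0587).

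In the other 5 types Cacna1h was low. PV basket cells had 60 counts and 2.84 CPM, Martinotti cells 14 counts and 2.25 CPM, and upper chandelier cells 11 counts and 1.65 CPM. Long-projecting cells had 11 counts, with animals at 0 to 1.26 CPM, and deep chandelier cells 3 counts, all in library 4. A count of 0 in deep chandelier cells would have allowed up to 0.404 CPM (3 counts of the total, counting error only). Of the pairs, 3 were called: interneuron-selective over long-projecting cells (edgeR adjusted p = 0.00984), CCK basket over long-projecting cells (edgeR adjusted p = 0.0346) and interneuron-selective over deep chandelier cells (edgeR adjusted p = 0.0279). The background in these pairs was 10.6%, 6.62% and 15.5%.

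The Cacna1h counts cannot be separated from those of Tpsg1, a tryptase gene that overlaps it by 158 bases on the opposite strand in the reference annotation. Tpsg1 had 293 counts, in 120 cells, and all 120 also had a Cacna1h count. The counts of both genes were equal in 83 of these cells, and in no cell did Tpsg1 have more than Cacna1h. Across the 38 libraries the genes correlated at r = 0.983 (Pearson, log2 of CPM + 1), as a description over libraries that differ in type and depth. Interneuron-selective animal 4 had 52.8 CPM of Tpsg1 against 64.9 CPM of Cacna1h. Which of the 2 genes the shared counts came from was not tested.

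**Figure D3:**
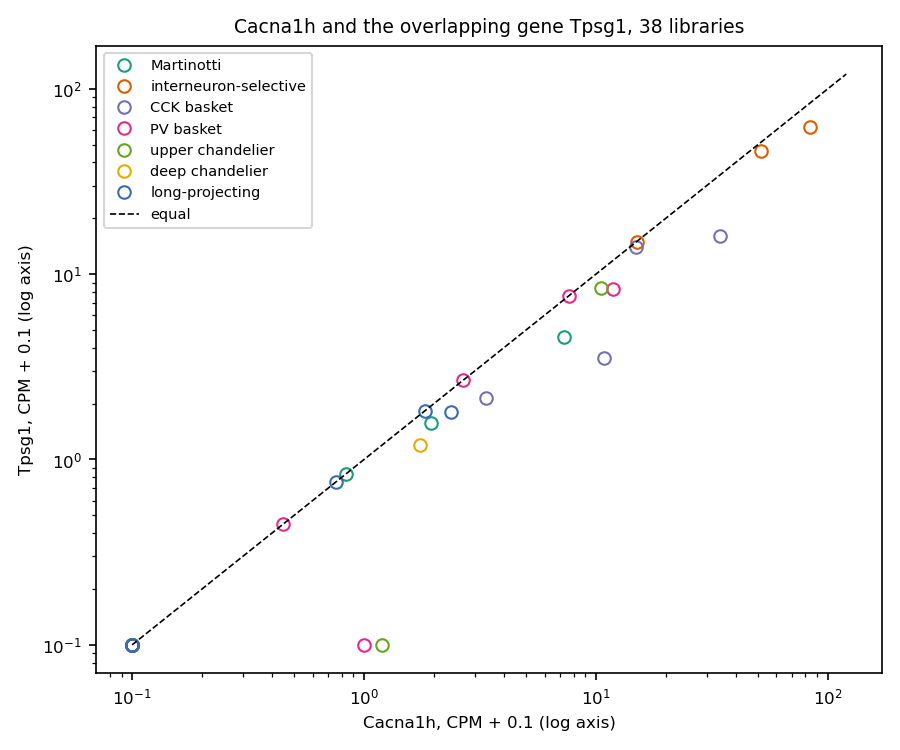
Each circle is 1 of the 38 libraries, coloured by cell type, with Cacna1h on the x axis and Tpsg1 on the y axis, both as CPM + 0.1 on log axes. The dashed line marks equal values, and no library lies above it; 19 libraries hold counts of both genes and 2 hold Cacna1h alone.

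Cacna1i, the third T-type gene, is known from the thalamus. Its mean ran from 45.9 ± 4.93 CPM in upper chandelier cells (SD, n = 2) to 8.46 ± 5.29 CPM in long-projecting cells (SD, n = 4), a ratio of 5.43. Animals within a type differed by more than this in 3 types: CCK basket animals read 0.784 and 53.6 CPM, interneuron-selective animals 2.49 and 48.0 CPM, and long-projecting animals 0.651 to 12.4 CPM. PV basket replicates were close together at 11.2 and 9.79 CPM. No type and no pair of types was called for Cacna1i, and its standard errors of 0.89 to 1.17 on the log2 scale were among the largest of the members, so a difference of several-fold was not detectable here.

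Ordered by mean CPM, the 7 types give 6 steps for each gene and 48 in all. Only 1 step between neighbours was called, Cacna1g between long-projecting and PV basket cells. A second, Cacna1e between long-projecting and Martinotti cells, had an unadjusted p under 0.05. No other step between neighbours had an unadjusted p under 0.05, so their order is not resolved beyond the spread of the replicates. Over all 21 pairs of types, 22 of 168 combinations of gene and pair were called: 11 for Cacna1e, 6 for Cacna1g, 3 for Cacna1h and 2 for Cacna1b. Over all genes, 5.73% of such tests were called.

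By type, the median log2 fold change of the 8 genes was 0.60 in interneuron-selective, 0.59 in Martinotti and 0.49 in CCK basket cells, where 7, 6 and 7 genes were positive. It was -0.63 in upper chandelier, -0.49 in PV basket, -0.35 in long-projecting and -0.27 in deep chandelier cells, where 3, 2, 1 and 3 genes were positive. The medians of all genes tested lay between -0.08 and 0.10 in these comparisons. In long-projecting cells the 1 positive gene was Cacna1e. Deep chandelier cells had no member called by edgeR, where 19.1% of all genes were called. Among 8 members that share amounts to few calls, so the 0 is not read as a result about the members. At an unadjusted p under 0.05, 2 members passed in deep chandelier cells, as did 5291 of all 15533 genes. DESeq2 also called 0 members there, and 4367 of 14914 genes.

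The 2 pairs of types that shared a flow cell give a comparison within a sequencing run. Between Martinotti and interneuron-selective cells, 0 of 8 members were called by edgeR in the fit over all types, against a background of 3.09%, and DESeq2 called 1. Between upper chandelier and long-projecting cells, which differ in age and sex, 1 of 8 was called, against the background of 4.08%. It was Cacna1e, 27.7-fold higher in long-projecting cells (log2 4.96 ± 0.64 SE, edgeR adjusted p = 0.000500). With only these 2 types in the fit, 3 members were called. The backgrounds given here belong to the edgeR fit over all types and do not apply to this count or to that of DESeq2. No share of all genes is given for these fits, so neither count is read as a result about the members.

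The pore subunit works with auxiliary subunits: alpha2delta subunits, which bring channels to the membrane and bind gabapentinoid drugs, and beta subunits, which bind the pore from inside the cell. The gamma genes are listed with them, although several encode partners of AMPA receptors. Of the 16 listed auxiliary genes 15 were tested, and 11 of these differed between types by edgeR, against a background of 25.0% of all genes. The 11 were all 4 alpha2delta genes, Cacnb2, Cacnb4, Cacng2, Cacng3, Cacng4, Cacng5 and Cacng8. Against the mean of the other types, 6 were higher and 1 lower in Martinotti cells, where 5.60% of all genes were called, and 5 higher and 2 lower in long-projecting cells, where 13.1% were. The counts were 1 higher and 3 lower in interneuron-selective, 3 and 1 in CCK basket, 2 and 2 in PV basket, 0 and 1 in upper chandelier and 2 and 1 in deep chandelier cells. The backgrounds in these 5 comparisons were 10.0%, 6.30%, 3.89%, 1.91% and 19.1%, and the 3 of 15 in deep chandelier cells lie near theirs.

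The alpha2delta genes differed by type in unlike ways. Cacna2d1 had 671 ± 113 CPM in deep chandelier cells (SD, n = 2), where it was higher by log2 3.06 (edgeR adjusted p = 1.34e-06), and 45.6 ± 14.0 CPM in long-projecting cells (SD, n = 4), where it was lower by log2 -1.65. Cacna2d2 had 166 ± 0.308 CPM in PV basket cells (SD, n = 2; log2 4.14, edgeR adjusted p = 0.000462), 80.6 ± 11.3 CPM in long-projecting cells (SD, n = 4; log2 3.06) and 1 count in all interneuron-selective cells. Cacna2d3 was lower in PV basket cells, with 30.7 ± 2.59 CPM (SD, n = 2; log2 -3.64, edgeR adjusted p = 0.000138), and higher in long-projecting cells, at 601 ± 114 CPM (SD, n = 4; log2 1.50), and in Martinotti cells (log2 1.17). PV basket cells were thus low in Cacna1e, Cacna1g and Cacna2d3 and high in Cacna2d2. Cacna2d4 was higher in CCK basket cells (130 ± 78.7 CPM, SD, n = 2; log2 2.13) and interneuron-selective cells (log2 1.63) and lower in deep chandelier cells (log2 -2.61).

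Among the beta genes, Cacnb4 was higher in Martinotti cells, at 757 ± 25.6 CPM, and in deep chandelier cells, at 627 ± 149 CPM (SD, n = 2 each; log2 1.48 in both). It was lower in interneuron-selective cells, with 97.8 ± 17.9 CPM (SD, n = 2; log2 -2.11, edgeR adjusted p = 0.000286), and in upper chandelier cells (log2 -1.02). Cacnb2 was higher in CCK basket cells, with 304 ± 103 CPM (SD, n = 2; log2 1.95, edgeR adjusted p = 0.00589). In Martinotti cells Cacng4 had the largest called change of the list (log2 4.92, edgeR adjusted p = 0.0120), at 26.5 ± 13.4 CPM (SD, n = 2). Cacng5 had the largest called change of the list in CCK basket cells, where it was higher at 126 ± 41.0 CPM (SD, n = 2; log2 4.09), and PV basket cells held 4 counts of it and were called lower.

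**Figure D4:**
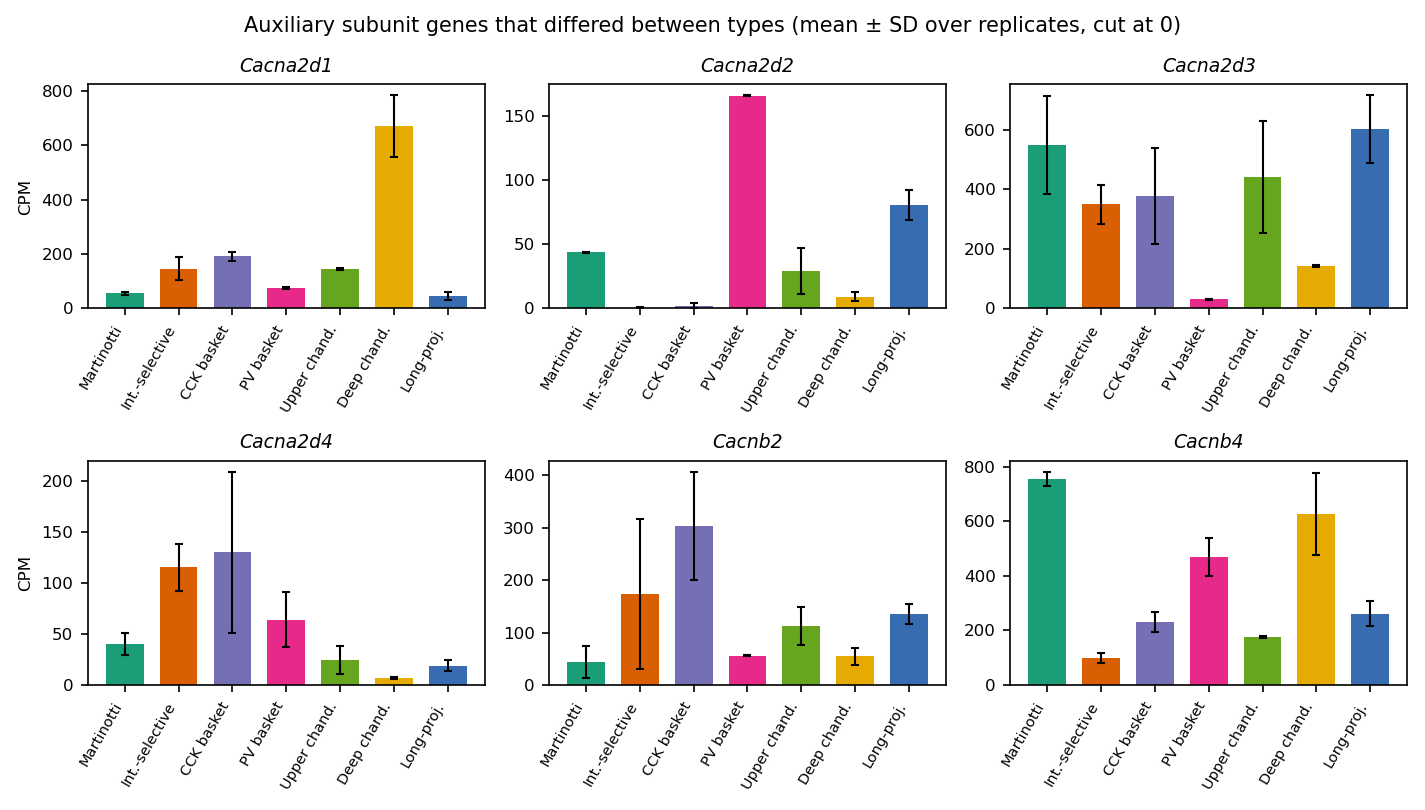
Bars give the mean CPM of 6 alpha2delta and beta subunit genes in each cell type, with whiskers for the SD over replicates, cut at 0. These 6 genes differed between types in the joint test; Cacna2d1 peaks in deep chandelier, Cacna2d2 in PV basket and Cacnb4 in Martinotti cells.

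Of the calcium-activated potassium channel genes, whose products turn calcium entry into outward current, 5 of the 7 tested differed between types by edgeR, against the background of 25.0%. Long-projecting cells, with a background of 13.1%, had 2 higher and 2 lower: Kcnmb4 at 185 ± 14.1 CPM (SD, n = 4; log2 3.50, edgeR adjusted p = 2.91e-05) led the higher, and Kcnn2 at 13.3 ± 4.91 CPM (SD, n = 4; log2 -1.89) the lower. Deep chandelier cells had 6 counts of Kcnmb4 (log2 -5.40, edgeR adjusted p = 0.00120). Of 13 active zone genes, 4 differed between types by edgeR, a share near the background of 25.0%. Unc13c was higher in Martinotti cells at 301 ± 208 CPM (SD, n = 2; log2 3.47). Of 10 genes of calcium store release and entry, 4 differed between types by edgeR, against the same 25.0%. Itpr1, the inositol trisphosphate receptor, was higher in upper chandelier (log2 2.52), deep chandelier (log2 2.23) and PV basket cells (log2 1.99), where the levels were 459, 314 and 322 CPM. It was lower in interneuron-selective, CCK basket and long-projecting cells, at 41.0, 28.4 and 29.6 CPM. Nalcn, the sodium leak channel and the 1 other pore gene tested, was not called in any comparison by edgeR, while Cacna1f and Cacna1s did not pass the filter.

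For each member, the 3 genes whose levels were most alike over the 16 replicates were taken from 9958 genes by Pearson correlation of log2 CPM. Cacna1e was most like Egfem1 (r = 0.933), Timp2 (r = 0.912) and Zcchc12 (r = 0.910). Cacna1g was most like Rph3a (r = 0.883), Nedd4l (r = 0.868) and Ppp1r9b (r = 0.840). Cacna1h was most like Tpsg1 (r = 0.986), then Accn4 (r = 0.899) and Cpne2 (r = 0.893). The closest genes were Far2 for Cacna1a (r = 0.861), with Sirt2 and Trim2 next, and Svop for Cacna1b (r = 0.863), with Pick1 and Cdc37 next. They were Slc12a4 for Cacna1c (r = 0.892), with St6galnac3 and Sprn next, and Kif21b for Cacna1d (r = 0.786), with Dlc1 and Sdk1 next. For Cacna1i it was Rcor2 (r = 0.883), with Ddn and Nsmaf next. The 16 points share types and libraries, and these are the highest of many values, so the correlations are descriptions only. Among the members themselves the closest pair was Cacna1c and Cacna1h (r = 0.692), while Cacna1e and Cacna1g, which were both low in PV basket cells, had r = 0.331.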

How the data were processed

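The authors deposited expected counts per gene and cell, made from reads aligned with Bowtie 0.12.7 to mm9 per the submitters' processing notes; no source used here names the counting tool. Of the values above 0, 4.07% were not whole (tolerance 1e-06). Cells were assigned to libraries by the deposited cell guide. Summed counts of a replicate were rounded, and edgeR 4.0.16 under R 4.3.3 gave the tests (TMM scaling, filterByExpr, quasi-likelihood test with robust prior, Benjamini-Hochberg adjustment, threshold 0.05). The fit left 9 residual degrees of freedom and a common dispersion of 0.381 (61.7% as a coefficient of variation). CPM are counts scaled to a common library total. DESeq2 1.42.0 and limma 3.58.1 served as alternatives. The fit was tested on simulated data with 200 changed genes.

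Agreement of PV basket libraries was measured as the ratio of observed to expected squared difference: 1.22 to 1.72 in 8 of 190 pairs of libraries of 1 type, and at least 5.37 in the others. Library depth ran from 530927 to 4568242 counts, with a median of 98298 per cell, and intervals and floors cover counting error only. The series description mentions 4 animals, whereas the labels number 18.

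The members, the lists and the tests were chosen with earlier results of these data known. All 8 members are named, with every called combination of gene and type. List genes are named where they had the largest or smallest called change of their list in a comparison that is described, or are alpha2delta or beta genes called in the joint test. The 3 most correlated genes were taken among genes of at least 20 CPM in some type. No gene coordinates are printed, since the files use mm9 and the annotation another build, which served for names, strands, overlaps between genes and the printed sequences. No protein sequences were used here. One of the fixed gene lists is not reported here.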

Additional observations from a re-analysis of the deposited data

Results flagged for a closer look

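A group of 4 to 10 libraries or animals was searched for a highest or lowest value that stood far from the others (Dixon's 95% criterion). For normally distributed values, chance alone flags about 1 of 20 groups. Of 64 groups tested, 8 held such a value, each a highest one. CPM with values at or near 0 need not follow that distribution, so the 8 cannot be set against this rate. In deep chandelier cells, library 3 had 44.1 CPM of Cacna1e, where the other 3 libraries lay between 3.83 and 8.58 CPM, and library 4 had 1.65 CPM of Cacna1h, where the other 3 were at 0. That value rests on 3 counts, and any count beside 3 zeros meets the criterion. In upper chandelier cells, library 1 had 186 CPM of Cacna1c, against 86.3 to 113 CPM in the other 4, and 10.4 CPM of Cacna1h, against at most 1.09 CPM. In long-projecting cells, library 6 had 325 CPM of Cacna1c, against 99.5 to 204 CPM in the other 8, and library 5 had 237 CPM of Cacna1d, against 112 to 171 CPM. Long-projecting animal 17 had 61.6 CPM of Cacna1g, against 35.9 to 39.3 CPM in the other 3. In CCK basket cells, library 3 had 93.2 CPM of Cacna1i, against 0.254 to 15.9 CPM in the other 3.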

How the results depend on the processing

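None of the 8 gene and type calls or the 22 gene and pair calls of the members changed direction under any alternative run. The count of members that differ between types was 3 and became 5 with DESeq2, with the 18 labelled animals as replicates and with libraries as units and no block, and ran from 2 to 4 with an animal or library left out. Without the deep chandelier cells, an alternative added after seeing the data, 14 gene and type combinations were called. That fit lacks a type and sets each type against fewer others, so the 14 is not out of the same 56 combinations. The count of gene and type combinations over all types was 8 of 56 and became 13 with DESeq2 and 14 with the 18 animals. With a replicate left out it ran from 3 (without animals 7 and 8) to 15 (without animal 12), with 4 without animals 9 and 10, and 5 without animal 14, 15, 16 or 18, Martinotti library 4, deep chandelier library 1 or upper chandelier library 2. The count over pairs was 22 and became 35 with DESeq2, with a range of 15 to 36 (without animal 12) when a replicate was left out. The count of called steps between neighbouring types was 1 and reached 2 with DESeq2 and 4 without animal 12. The count of other pathway genes was 25 and stayed between 20 and 34. The share of all genes called over pairs is not given for these runs, so their pair counts cannot be set against a background. The calls over all genes also rose or fell in fits with an animal or library left out. A changed member count in those fits is therefore not read as a result about the members. With DESeq2 the joint test called 7080 of 15517 genes, against 3888 of 15533 in the main fit. A larger count of members is therefore not read as a gain above the background. The settings with 18 animals and with libraries as units also count more replicates than the main fit, so their counts are no added support.

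The numbers in the sample titles only count libraries: deviations of equally numbered libraries of different types had a median correlation of -0.0031, and 2 of 38 correlated best with their own number. With libraries as units and this number as a replicate block, 4 members differed between types, 6 gene and type combinations and 21 gene and pair combinations were called. Under it the calls of Cacna1e in Martinotti cells (adjusted p = 0.0602), Cacna1g in CCK basket cells (0.134) and Cacna1g in upper chandelier cells (0.0557) were lost, Cacna1a was called in the joint test (0.0416), and Cacna1h in CCK basket cells was gained (0.0271). Of the pairs, both Cacna1b calls (0.258 against deep chandelier and 0.298 against interneuron-selective cells) and Cacna1e in CCK basket against deep chandelier cells (0.0705) were lost. Cacna1e in interneuron-selective against upper chandelier cells (0.0491) and Cacna1a in Martinotti against upper chandelier cells (0.0424) were gained. The samples share only a number, so a call lost here does not bear on the size of a difference.

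Calls over all genes also moved. In Martinotti cells the 870 calls (607 higher, 263 lower) became 1718 with DESeq2 (831 and 887), 1433 with the 18 animals, 1500 with libraries as units and 365 with a spread per type. In interneuron-selective cells 1556 became 2488 with DESeq2 (1219 higher, 1269 lower, where the edgeR fit had 890 and 666) and 508 with a spread per type. In CCK basket cells 978 (811 higher, 167 lower) became 1583 (950 and 633), 1513, 1516 and 539 in the same order as in Martinotti cells. In PV basket cells 604 (432 higher, 172 lower) became 1062 (473 and 589), 2387, 2261 and 2321. In upper chandelier cells 296 (243 higher, 53 lower) became 545 (295 and 250), 533, 771 and 538. In deep chandelier cells 2967 became 469 with a spread per type, in long-projecting cells 2036 (1508 higher, 528 lower) became 3264 with a spread per type and split into 1568 and 1087 with DESeq2. The joint test called 3888 genes, and 7080 with DESeq2, 6468 with the 18 animals and 7226 with libraries as units. Without composition scaling the median log2 fold change of all genes moved from -0.03 to 0.19 in interneuron-selective, from -0.08 to -0.32 in deep chandelier and from 0.05 to 0.16 in upper chandelier cells, and the split became 1318 higher and 512 lower in interneuron-selective and 1290 and 1320 in deep chandelier cells (1912 and 1055 with it). The causes of these shifts were not tested. With 2 replicates in most types, a coefficient of variation of 61.7% limits which changes can be seen.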
